A study of Mus musculus with 6 samples.

Results

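The genes described here control how liver cells switch cholesterol synthesis and lipoprotein uptake on and off through the transcription factor SREBP2. They are 8 genes chosen by name from the 18253 gene symbols of the series: Srebf2, Scap, Insig1, Insig2, Mbtps1, Mbtps2, Stard4 and Mylip. All 8 were listed in each of the 6 libraries. The RNA came from the livers of C57BL/6 mice, with postnatal day 21 as their labelled age. In 3 libraries the mice had been given ANIT (alpha-naphthylisothiocyanate), which damages the bile ducts and causes cholestasis, and in 3 they had been given ANIT and celastrol, a plant triterpenoid, all with 5 days of treatment on the label. Both groups therefore carry the ANIT injury and neither shows normal liver. The labels do not say whether each library came from its own animal, so the p-values measure the spread between libraries, which may be technical. Depth was estimated, by a loose fit to the steps between low FPKM values, at 18820000 to 19700000 reads per library. Celastrol replicate 2 stood apart from celastrol replicates 1 and 3: its top 10 genes held 20.7% of all FPKM, against 33.2% and 31.5% in those and 20.3% to 21.9% with ANIT, and results that rest on it are also given without it.

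SREBP2 is made as a membrane protein of the endoplasmic reticulum. When sterols are scarce, its partner SCAP carries it in COPII vesicles to the Golgi, where the site-1 protease (Mbtps1) and the site-2 protease (Mbtps2) release the part that enters the nucleus and turns on genes of sterol synthesis and uptake. When sterols are plentiful, INSIG proteins (Insig1 and Insig2) hold SCAP in the endoplasmic reticulum. Srebf2, Insig1 and Stard4 are themselves known targets of SREBP2. Mylip, which is turned on by the oxysterol receptor LXR, encodes a ubiquitin ligase that sends lipoprotein receptors for degradation.

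The proximal promoters of 3 members are shown because these genes, which encode the factor and both of its retention proteins, were all lower in the celastrol group. Each is the 250 bases before an annotated start site, 5′ to 3′ on the gene's strand, from RefSeq on build GRCm38.p6. Capitals mark matches, on either strand, to the NF-Y box CCAAT, the Sp1 box GGGCGG, the E-box CACGTG and the sterol element TCACNCCAC or its shorter form TCACNCCA, which overlap each other. The shorter form was chosen after the sequences had been seen. The Srebf2 window is chr15:82147019-82147268 (plus strand), that of Insig1 is chr5:28071162-28071411 (plus strand) and that of Insig2, before the first of its 3 listed starts, is chr1:121332590-121332839 (minus strand).
Srebf2: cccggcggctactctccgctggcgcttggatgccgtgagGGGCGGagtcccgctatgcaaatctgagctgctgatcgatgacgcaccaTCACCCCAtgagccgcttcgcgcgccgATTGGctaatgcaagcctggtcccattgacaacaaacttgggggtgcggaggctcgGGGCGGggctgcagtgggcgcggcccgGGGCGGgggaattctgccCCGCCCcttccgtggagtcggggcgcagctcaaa
Insig1: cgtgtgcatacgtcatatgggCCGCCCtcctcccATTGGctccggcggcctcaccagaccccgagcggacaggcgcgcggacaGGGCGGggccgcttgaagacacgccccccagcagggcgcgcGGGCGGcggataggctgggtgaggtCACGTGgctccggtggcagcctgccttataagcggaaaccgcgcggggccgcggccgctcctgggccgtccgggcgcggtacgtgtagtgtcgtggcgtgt
Insig2: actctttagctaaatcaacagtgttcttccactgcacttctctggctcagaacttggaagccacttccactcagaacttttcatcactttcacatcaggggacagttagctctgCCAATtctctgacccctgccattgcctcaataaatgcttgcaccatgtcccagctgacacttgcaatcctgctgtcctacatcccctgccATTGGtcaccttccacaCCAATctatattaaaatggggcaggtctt

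Promoters were listed for 7 members (10 start sites in all), and searches covered 300 bases, with 50 past the start. The full sterol element occurred in 0 of the 10, against 1.24% of 32851 mouse promoters, and its shorter form in that of Srebf2 alone, at positions -162 to -155 relative to the start, against 4.36%. NF-Y boxes lay in 4 of the 10 promoters (Srebf2, Insig1, the shown one of Insig2, and Mylip), against 37.41% of all promoters. Sp1 boxes lay in 8 of 10, from 6 members, against 35.66% of all promoters and 62.02% of those of tested genes. Both windows of Scap are in that count, and they overlap and share a site. The E-box lay in 3 of 10, in Insig1 at positions -101 to -96 and, as the same site, in both overlapping windows of Scap. Its share was 7.15% of all promoters and 10.27% of those of tested genes. A match only says that these letters are present. Stard4 was not listed there.

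Srebf2 also carries a microRNA gene, Mir33 (chromosome 15, positions 82198122 to 82198190, plus strand), which overlaps none of its annotated exons. Its mature products are listed as a 5p and a 3p strand. The 5p strand is shown, with the seed in capitals, because it would be cut from the primary transcript of a gene that was lower with celastrol.
mmu-miR-33-5p: gUGCAUUGuaguugcauugca
No library listed Mir33, so the FPKM of Srebf2 says nothing of the level of the microRNA.

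Levels are given as FPKM, fragment counts scaled by gene length and by library size, so they can be compared between genes. With ANIT the highest members were Insig1 (245 ± 43.3 FPKM) and Insig2 (244 ± 90.5 FPKM), whose libraries overlapped (SD, n = 3 here and below). Scap (33.3 ± 5.43 FPKM), Srebf2 (29.1 ± 1.70 FPKM) and Stard4 (24.6 ± 3.13 FPKM) followed, and each overlapped the next in that order. Mbtps1 stood apart at 15.6 ± 1.05 FPKM, and Mbtps2 (2.91 ± 0.387 FPKM) and Mylip (2.53 ± 0.543 FPKM) were the lowest and overlapped. With celastrol the order changed. Insig2 (106 ± 27.9 FPKM) was above Insig1 (57.3 ± 11.02 FPKM) without overlap, and Scap (22.6 ± 2.67 FPKM) stood above Mbtps1 (15.7 ± 1.37 FPKM). Srebf2 (13.2 ± 4.45 FPKM) overlapped both Mbtps1 and Stard4 (9.17 ± 0.961 FPKM). Mylip (2.89 ± 1.13 FPKM) and Mbtps2 (2.02 ± 0.296 FPKM) again overlapped.

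Of the 8 members, 5 were lower in the celastrol group and none was higher: Insig1, Stard4, Srebf2, Insig2 and Scap. The test was limma on log2(FPKM + 1), fitted to the 10593 genes that reached 1 FPKM in 3 or more libraries, with a Benjamini-Hochberg adjusted p under 0.05 as the threshold. All 8 members passed that filter, and at an unadjusted p under 0.05 limma had 6 lower and 0 higher. The share of all tested genes at that unadjusted threshold was not counted, so unadjusted counts here and below have no background beside them. Many genes reach it: Mbtps2, with an unadjusted limma p of 0.016, ranked only 2895 of the 10593 by p. At the adjusted threshold, 20.6% of all tested genes were called lower, 4.41% higher and 25.0% in either direction. The 2 groups did not overlap for 6 members, all lower with celastrol, where 44.9% of all tested genes were without overlap and 36.6% lower without overlap. The members' median log2 fold change was -0.83, beside -0.17 for all tested genes. In bulk tissue, fewer cells of a type and less RNA per cell cannot be told apart. After scaling each library by the median ratio, the median of all tested genes was 0.0039 and the calls among them went from 467 higher and 2185 lower to 889 higher and 1053 lower. Of the members, 2 then passed, Insig1 and Stard4, both lower. With 1 library left out, 3 members passed without ANIT replicate 1, ANIT replicate 2 or celastrol replicate 1, and 4 without any 1 of the others. The direction of Insig1, Insig2, Srebf2, Scap, Stard4 and Mbtps2 was downward under each alternative setting in which they were tested.

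**Figure D1:**
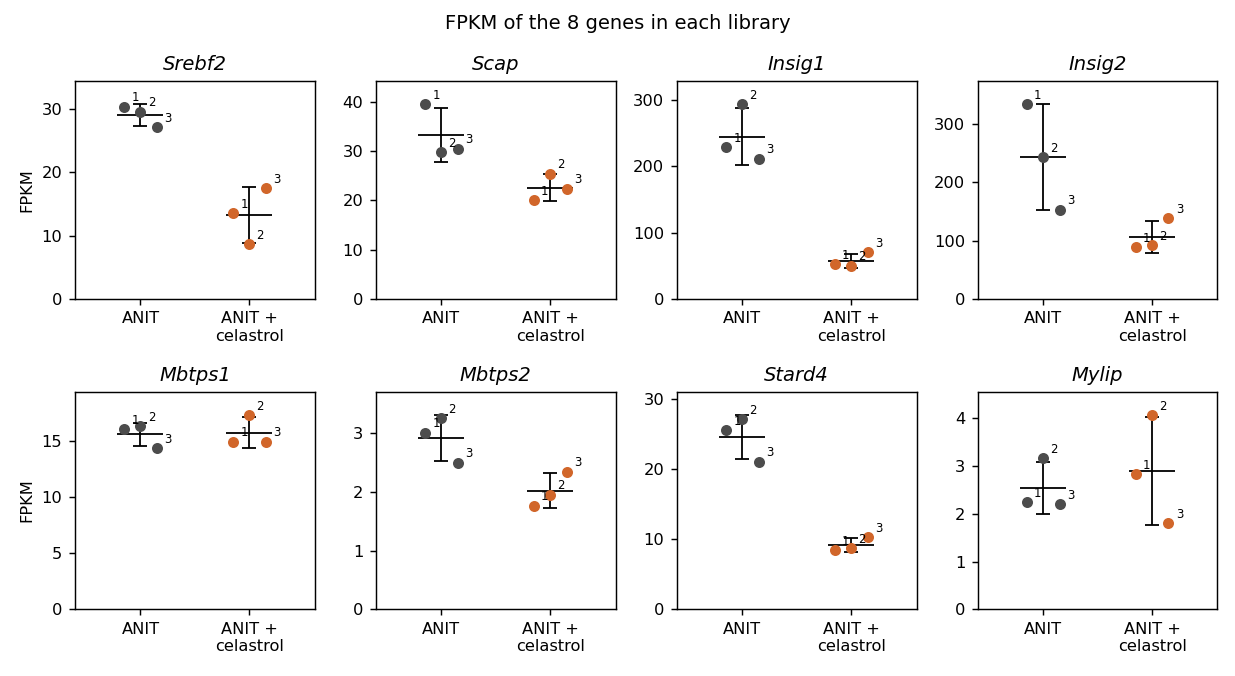
FPKM (y axis, linear, from 0, scaled for each gene) of the 8 genes in the 3 ANIT and 3 celastrol libraries, 1 point per library with its replicate number, and the mean with SD as error bars. The groups are apart for Srebf2, Scap, Insig1, Insig2, Mbtps2 and Stard4, and overlap for Mbtps1 and Mylip.

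The factor itself, Srebf2 (chromosome 15, positions 82147181 to 82205379, plus strand, build mm10 with GENCODE M21 here and for the other genes), measured 30.41, 29.61 and 27.14 FPKM in ANIT replicates 1, 2 and 3 and 13.56, 8.64 and 17.52 FPKM in celastrol replicates 1, 2 and 3. Each celastrol library was below each ANIT library, and celastrol replicate 2 was the lowest. Srebf2 fell by 1.13 on the log2(FPKM + 1) scale (SE 0.22, limma adjusted p = 0.012), and the ANIT mean was 2.19 times the celastrol mean. Without celastrol replicate 2 the log2 fold change was -0.87 (limma adjusted p = 0.0046), and with any 1 library left out the adjusted p stayed between 0.0046 and 0.0497. The call was lost after median-ratio scaling (log2 fold change -0.92, adjusted p = 0.061) and quantile normalization (-0.84, adjusted p = 0.089), within a range of 0.0046 to 0.089 over its 15 alternatives. Besides Mir33, a gene model on the same strand, Gm49502, overlaps the locus, and how shared reads were counted is not given.

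Srebf1 encodes SREBP1, the related factor that governs fatty acid synthesis and shares the SCAP, INSIG and protease steps. It measured 18.7 ± 4.97 FPKM with ANIT and 18.9 ± 7.51 FPKM with celastrol (n = 3 each, SD), which was not past the threshold (log2 difference -0.01 with SE 0.30, limma adjusted p = 0.98). Its sign turned positive under median-ratio scaling (0.19), quantile normalization (0.26), after removal of the 20 most abundant genes (0.06), and when ANIT replicate 2 or 3, celastrol replicate 1 or celastrol replicate 3 was dropped (0.09 to 0.15). Celastrol replicate 2 was the highest of its group at 27.54 FPKM, against 14.17 and 14.94 FPKM in celastrol replicates 1 and 3, and without it the log2 difference was -0.30 (limma adjusted p = 0.33). Without ANIT replicate 1 it was -0.24 (adjusted p = 0.58). The ratio of Srebf1 to Srebf2 within a library was 0.427, 0.710 and 0.812 with ANIT and 1.05, 3.19 and 0.853 with celastrol. Scaling a library by a single factor cannot alter it, whereas quantile normalization can. The ratio was above 1 in celastrol replicates 1 and 2 and below 1 in all other libraries. The mean log2 ratio was higher with celastrol by 1.18, and by 0.59 without celastrol replicate 2 (exact permutation p = 0.1 with all 6 libraries, two-sided). That p is the smallest that 3 against 3 libraries allow, and it remained 0.1 after Benjamini-Hochberg adjustment over the 4 ratios examined.

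Scap (chromosome 9, positions 110333288 to 110384950, plus strand), the sterol-sensing escort, measured 39.54, 29.81 and 30.51 FPKM in the libraries given ANIT alone, against 20.07, 25.4 and 22.37 FPKM with celastrol. The groups did not overlap, although celastrol replicate 2 came within 5 FPKM of ANIT replicate 2. Scap fell by 0.53 on the log2(FPKM + 1) scale (SE 0.15, limma adjusted p = 0.036). The call was kept in 6 of 15 alternatives (adjusted p from 0.013 to 0.24), and without celastrol replicate 2 it passed (adjusted p = 0.019). Dropping any 1 of the other libraries ended it: leaving out each ANIT library gave an adjusted p of 0.062 to 0.10, and leaving out celastrol replicate 1 or 3 gave 0.13 or 0.082. In those fits the log2 fold change was -0.41 to -0.60. Median-ratio scaling also ended the call (adjusted p = 0.13), as did quantile normalization (0.24), and the log2 fold change shrank to -0.33 and -0.24. Without the filter on low values the call was lost (0.066) and the log2 fold change was still -0.53. A gene model on the opposite strand, 5830462I19Rik, overlaps the locus, and whether counting used strand is not given.

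Insig1 (chromosome 5, positions 28071363 to 28078662, plus strand) had the largest difference of the members. Its FPKM was 229.15, 293.98 and 211.94 with ANIT and 51.96, 49.93 and 69.95 with celastrol. All celastrol libraries were far below all ANIT libraries, and the ANIT mean was 4.28 times the celastrol mean. Insig1 fell by 2.08 on the log2(FPKM + 1) scale (SE 0.19, limma adjusted p = 0.00082). It passed in all 15 alternatives, with log2 fold changes between -2.23 and -1.83 and adjusted p between 0.00050 and 0.0063. Without celastrol replicate 2 the value was -1.99.

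Insig2 (chromosome 1, positions 121304353 to 121332589, minus strand) measured 334.45, 243.82 and 153.46 FPKM in the libraries given ANIT alone, against 88.64, 91.92 and 138.44 FPKM with celastrol. ANIT replicate 1 was the highest library, and ANIT replicate 3 and celastrol replicate 3 lay close together, so the groups were separated only narrowly. Insig2 fell by 1.15 on the log2(FPKM + 1) scale (SE 0.31, limma adjusted p = 0.033). The call was kept in 6 of 15 alternatives (adjusted p from 0.016 to 0.12). It was lost under median-ratio scaling (0.091) and quantile normalization (0.12), without the filter on low values (0.059), after removal of the 20 most abundant genes (0.068), without ANIT replicate 1 or 2 (0.075 and 0.11) and without celastrol replicate 1 or 2 (0.12 and 0.069). In those fits the log2 fold change was -0.89 to -1.15. Mouse liver makes Insig2 transcripts from alternative first exons, and a value per gene does not separate them. A gene model on the opposite strand, Gm37174, overlaps the locus, and whether counting used strand is not given in the sources used here.

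Because Insig1 and Insig2 do the same task, their balance was also compared within libraries. Together they came to 563.6, 537.8 and 365.4 FPKM in the libraries given ANIT alone, against 140.6, 141.85 and 208.39 FPKM with celastrol. Insig1 made up 40.7%, 54.7% and 58.0% of that sum with ANIT and 37.0%, 35.2% and 33.6% with celastrol. All celastrol libraries were below all ANIT libraries, with ANIT replicate 1 the nearest to them. The mean log2 ratio of Insig1 to Insig2 was lower with celastrol by a difference of -0.94 (exact permutation p = 0.1, two-sided, adjusted p = 0.1 over the 4 ratios). The ratio of the INSIG sum to Scap was 14.8 ± 3.06 with ANIT and 7.30 ± 1.88 with celastrol (SD, n = 3 each), a log2 difference of -1.03 (exact permutation p = 0.1, two-sided, adjusted p = 0.1 over the 4 ratios). Neither can pass a threshold of 0.05 in this design.

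**Figure D2:**
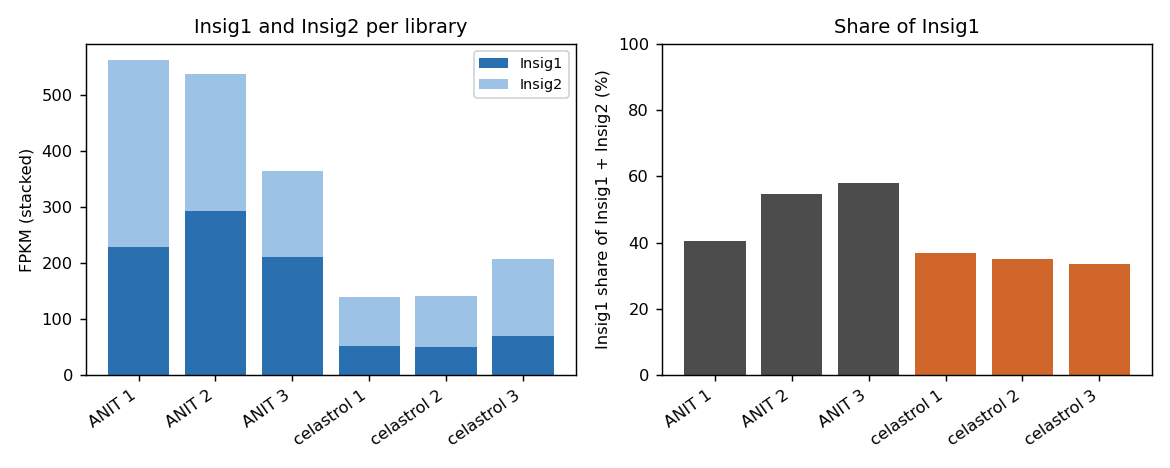
Left, FPKM of Insig1 and Insig2 stacked for each library (y axis, linear, from 0). Right, the share of Insig1 in the sum of both, in percent, with ANIT libraries in grey and celastrol libraries in orange. The sum is lower in every celastrol library, and the share of Insig1 runs from 33.6% to 37.0% there and from 40.7% to 58.0% with ANIT.

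The proteases that cut SREBP2 differed less. Mbtps1 (chromosome 8, positions 119508156 to 119558735, minus strand) measured 16.02, 16.3 and 14.35 FPKM in the libraries given ANIT alone, against 14.92, 17.28 and 14.9 FPKM with celastrol. The groups overlapped, with a log2 difference of 0.01 (SE 0.11, limma adjusted p = 0.95) that was below 0 when rescaled to TPM (-0.11) and without ANIT replicate 3 (-0.04) or celastrol replicate 2 (-0.055). After quantile normalization it was 0.27 and passed (adjusted p = 0.048, over a range of 0.048 to 0.97 in its 15 alternatives). Mbtps2 (chromosome X, positions 157535371 to 157598715, minus strand) measured 3, 3.25 and 2.49 FPKM in the libraries given ANIT alone, against 1.76, 1.95 and 2.34 FPKM with celastrol. All celastrol libraries were lower, by a log2 fold change of -0.38 (SE 0.12), and the gene did not pass (limma adjusted p = 0.058). On the TPM scale it passed (adjusted p = 0.025), and it did so in none of its other 13 alternatives (0.053 to 0.25). Another gene, Yy2, lies within Mbtps2 on the same strand, and how reads of the overlap were counted is not given in the sources used here. The ratio of Mbtps1 to Mbtps2 was 5.37 ± 0.375 with ANIT and 7.90 ± 1.34 with celastrol (SD, n = 3 each), a log2 difference of 0.54 (exact permutation p = 0.1, two-sided, adjusted p = 0.1 over the 4 ratios).

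Stard4 (chromosome 18, positions 33199355 to 33213862, minus strand) encodes a soluble carrier that moves cholesterol between membranes. Its FPKM was 25.55, 27.16 and 21.11 with ANIT and 8.49, 8.75 and 10.27 with celastrol. The libraries of each group lay close together and far from the other group. Stard4 fell by 1.33 on the log2(FPKM + 1) scale (SE 0.13, limma adjusted p = 0.00096), with an ANIT mean 2.68 times the celastrol mean. Like Insig1 it passed in all 15 alternatives (log2 fold change from -1.49 to -1.07, adjusted p from 0.00062 to 0.0074), and without celastrol replicate 2 the value was -1.30.

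Mylip (chromosome 13, positions 45389742 to 45412022, plus strand) measured 2.24, 3.16 and 2.2 FPKM in the libraries given ANIT alone, against 2.82, 4.06 and 1.8 FPKM with celastrol. The celastrol group held both the highest and the lowest library. Its log2 difference of 0.11 (SE 0.22, limma adjusted p = 0.74) changed sign to -0.10 without celastrol replicate 2. Its value rests on an estimated 110 to 254 reads per library, the fewest of the members, beside 344 to 628 for Mbtps2 and 918 or more for each of the others.

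**Figure D3:**
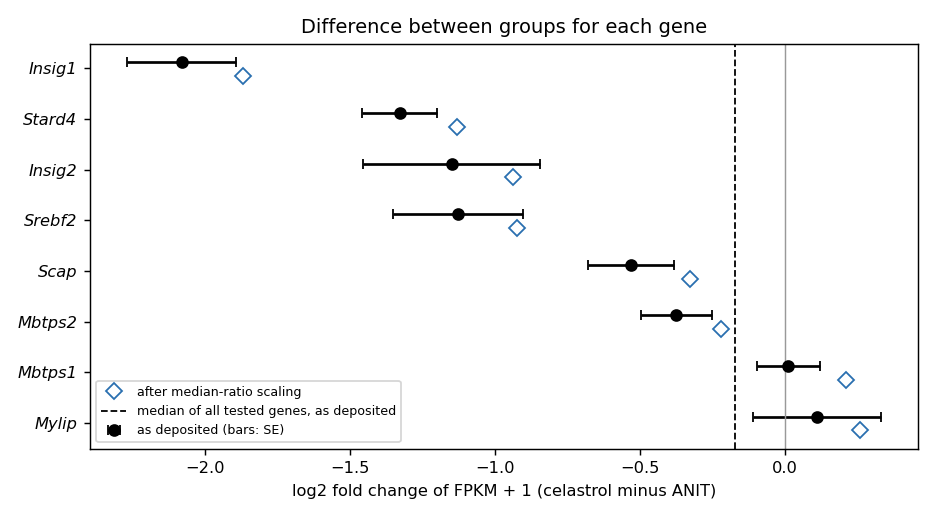
Log2 fold change of FPKM + 1 (x axis, celastrol minus ANIT) of each gene, as deposited (filled circles, bars are the SE) and after median-ratio scaling (open diamonds). The dashed line is the median of all tested genes, at -0.17. Insig1, at -2.08, is farthest to the left, and Mbtps1 and Mylip lie to the right of 0.

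Genes with the most similar pattern were found by the root mean square difference of log2(FPKM + 1), each gene centred on its own mean over the 6 libraries. The measure follows the size of the shift between the groups as well as the differences within them. Nearest to Srebf2 were 1810055G02Rik (0.11), Enc1 (0.13) and Myadm (0.13). For Scap they were Tmem203 (0.05), Dph1 (0.06) and Gna11 (0.06). Nearest to Insig1 were Tnfaip3 (0.10), Nfe2 (0.16) and Lipg (0.19), all under 10 FPKM in each library, where adding 1 compresses the fold. Among the nearest to Insig2 were Gldc (0.15) and Arhgef7 (0.18). Mob3a (0.10), Ildr2 (0.11) and Pla2g6 (0.11) were nearest to Stard4. For the members that did not pass, the nearest genes were Thap7, Gzf1 and Taf12 for Mbtps1 (0.02 to 0.03), Pfdn4, Adk and Med14 for Mbtps2 (0.03 to 0.04), and Exoc3l, Ets1 and Plxnd1 for Mylip (0.06 to 0.07). Among the members themselves Scap and Mbtps2 were the closest pair (0.19) and Insig1 and Mylip the most distant (1.16).

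The enzymes of sterol synthesis that SREBP2 turns on were lower as well. Of 20 tested, 17 fell and 0 rose (limma, also 0 at an unadjusted p under 0.05), with a median log2 fold change of -1.60. Sc5d, a desaturase of the sterol ring, fell from 178 ± 17.3 to 67.2 ± 4.65 FPKM on average (n = 3 each, SD), a log2 difference of -1.39 (limma adjusted p = 0.00091). Acat2, which joins acetyl-CoA units at the entry of the pathway, fell from 110.5 ± 16.5 to 33.9 ± 6.57 FPKM on average (n = 3 each, SD), a log2 difference of -1.68 (limma adjusted p = 0.0012). The 3 that did not pass were Sqle (-1.66, adjusted p = 0.058), Ebp (0.16, adjusted p = 0.39) and Tm7sf2 (-0.11, adjusted p = 0.63). Of 12 genes of the SREBP1 list, Srebf1 and lipogenic targets, 9 fell and 0 rose, and 10 and 0 at an unadjusted p under 0.05 (limma, median -1.39). Acly, Pnpla3 and Fasn had the smallest p, with log2 fold changes of -1.72, -1.65 and -2.89 (limma adjusted p of 0.00083, 0.0017 and 0.0020). Pnpla3 was low, at 2.66 ± 1.012 FPKM with ANIT and 0.137 ± 0.0577 FPKM with celastrol (n = 3 each, SD), and its log2 fold change was -3.52 with 0.1 in place of 1 added. Median-ratio scaling left 16 and 9 calls in these lists.

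Other proteins that hold, escort or turn over SCAP, INSIG and SREBP counted 8 lower and 0 higher of 16 tested, and 10 lower and 0 higher at an unadjusted p under 0.05 (limma, median -0.42). The count of 8 was 3, 2 and 5 without ANIT replicate 2, celastrol replicate 1 and celastrol replicate 3, and 5 and 4 under median-ratio scaling and quantile normalization. Among them were Ubxn4 and Vcp, which act in the extraction of proteins from the endoplasmic reticulum, and Erlin1, a membrane scaffold there, with log2 fold changes of -0.77, -0.63 and -0.67 (limma adjusted p of 0.0049, 0.0094 and 0.0063). They also included Rnf139, Pgrmc1, Ufd1 (listed as Ufd1l) and Erlin2. COPII vesicles carry SCAP and SREBP2 to the Golgi. Genes of their coat and of its assembly counted 7 lower and 0 higher of 13 tested (limma, median -0.33). At an unadjusted p under 0.05 the counts were 8 and 0 (limma). Those with the smallest p were Preb (-0.70), Sec23a (-0.52) and Sec23b (-0.74), with limma adjusted p of 0.0061, 0.0098 and 0.014, and the others were Sec24d, Sar1a, Sec31a and Sec24b. The count of 7 was 1 after median-ratio scaling, 0 after quantile normalization (1 at an unadjusted p) and 3 without ANIT replicate 1, ANIT replicate 2 or celastrol replicate 1. The call left after median-ratio scaling was Preb (limma adjusted p = 0.028), which is an assembly gene and not a coat subunit.

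Other substrates of the site-1 and site-2 proteases counted 3 lower and 0 higher of 6 tested, and 5 and 0 at an unadjusted p under 0.05 (limma, median -0.42). The 3 were Creb3, Atf6b and Gnptab (log2 fold changes of -0.41, -0.44 and -0.43, limma adjusted p of 0.026, 0.027 and 0.035). Creb3 and Atf6b encode transcription factors held in the endoplasmic reticulum. By limma the count was 0 after median-ratio scaling (0 at an unadjusted p), quantile normalization (1) and when celastrol replicate 1 or any ANIT library was dropped (3 to 5).

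Among 17 tested genes of cholesterol uptake and transport within the cell, 4 fell (23.5%) and 1 rose (5.88%), with a median of -0.21. These shares and this median lie near those of all tested genes (20.6%, 4.41% and -0.17), so the counts show nothing particular to the list. Those that fell were Lipa, the lysosomal lipase that frees cholesterol from lipoproteins (-0.99, limma adjusted p = 0.0105), Osbp, a sterol carrier (-0.72, adjusted p = 0.012), Gramd1c (-0.61, adjusted p = 0.014) and Soat2, which esterifies cholesterol (-0.44, adjusted p = 0.042). Lrp1, a large endocytic receptor of remnant lipoproteins, rose from 62.3 ± 7.65 to 96.6 ± 6.88 FPKM on average (n = 3 each, SD), a log2 difference of 0.63 (limma adjusted p = 0.016). Dropping ANIT replicate 2, ANIT replicate 3 or celastrol replicate 1 ended this rise as a call (adjusted p of 0.065, 0.057 and 0.072, log2 differences of 0.54 to 0.63). The count of 5 was 2 without ANIT replicate 2, 0 without celastrol replicate 1 (limma, 6 at an unadjusted p) and 8 without celastrol replicate 2, and 3 under median-ratio scaling or quantile normalization. Of 7 tested genes of LXR and its sterol targets (median -0.22), which share their regulator with Mylip, 2 fell (28.6%) and 0 rose. At an unadjusted p under 0.05 the counts were 2 and 2 (limma). The share that fell and the median also lie near those of all tested genes, so these counts show nothing particular to the list. The 2 lower genes were Abcg5 (-0.95, limma adjusted p = 0.011), a biliary sterol exporter, and Lpcat3 (-0.71, limma adjusted p = 0.023). Abca1 was at 0.41 (limma adjusted p = 0.11) and passed without celastrol replicate 2 (adjusted p = 0.014). The count of 2 was 4 in that fit, and 1 without any other single library or after quantile normalization. Under median-ratio scaling it was 3, of which 1 was higher.

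**Figure D4:**
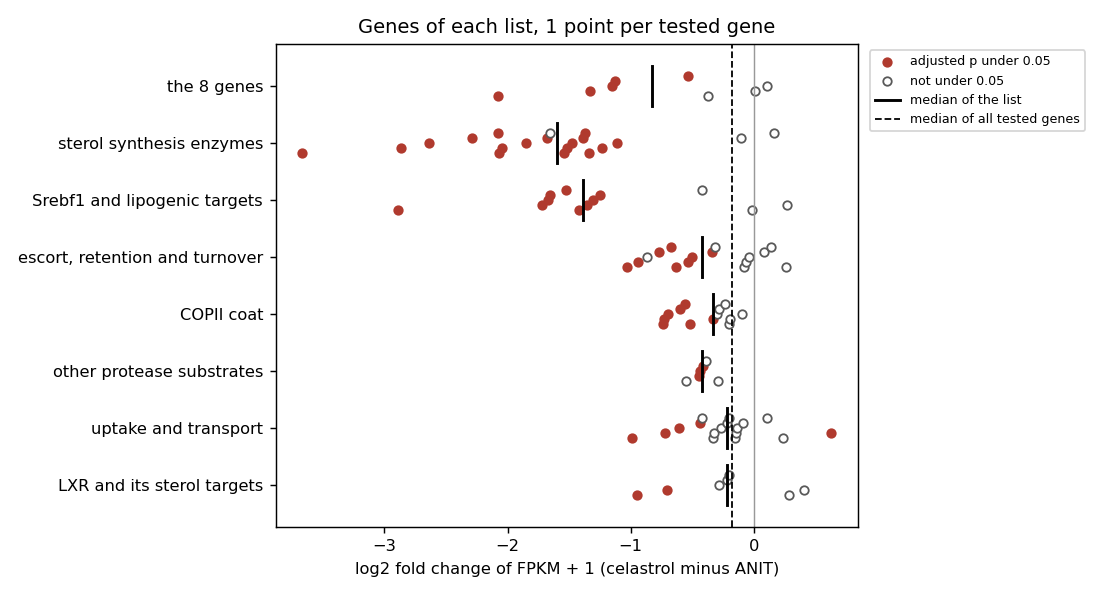
Log2 fold change of FPKM + 1 (x axis, celastrol minus ANIT) of every tested gene of each list (1 point per gene, filled where the adjusted p is under 0.05). Vertical bars are list medians and the dashed line is the median of all tested genes. Sterol synthesis (median -1.60) and lipogenic genes (median -1.39) lie farther left than the other lists.

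Hepatocyte markers were abundant in all libraries (7 of 8 symbols matched). The summed FPKM of these 7 was 45590 to 57293 with ANIT and 28366 to 31828 with celastrol. Alb, the largest part of that sum with ANIT, was lower with celastrol (32513 against 6985 FPKM). Cyp2e1 (677 against 2135 FPKM) and Fgb (4498 against 10840 FPKM) were higher. The other 4 did not pass, although Serpina1a was lower without overlap. The fall of the sum therefore rests on Alb. Transferrin, listed as Trf and not part of that sum, measured 11318 ± 3434 FPKM with ANIT and 10106 ± 1380 FPKM with celastrol (n = 3 each, SD, limma adjusted p = 0.75). Cholangiocyte markers summed to 650 to 1014 FPKM with ANIT and 208 to 262 with celastrol. Of 5 tested, 3 fell: Krt8, Krt18 and Krt19. Krt8 and Krt18, which hepatocytes also express, made up most of the sum in every library. Sox9 (limma adjusted p = 0.59) and Spp1 (limma adjusted p = 0.43) did not pass, and their groups overlapped. Krt7, Epcam and Cldn7 were below 1 FPKM in every library. Of 6 tested neutrophil markers 3 rose, with sums of 34.0 to 58.7 FPKM with ANIT and 67.6 to 92.0 FPKM with celastrol. For macrophages the sums overlapped (85.7 to 213 and 151 to 223 FPKM), as they did for stellate (19.7 to 36.7 and 15.02 to 51.9), sinusoidal endothelial (20.9 to 38.2 and 32.2 to 58.4, with 1 of 5 tested markers higher) and lymphocyte markers (0.58 to 0.95 and 0.67 to 2.06). The part of these shifts in the members' values was not tested.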

How the data were processed

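Liver RNA of 3 ANIT and 3 ANIT plus celastrol libraries was used, grouped and numbered by title. The deposited values are FPKM, 1 table per library, per the file headers. HISAT2, featureCounts and build mm10 are named in the submitters' processing notes, without versions. For annotation, gene lengths and strand, the setting is not given in the sources used here. Symbols missing from a table were set to 0, and 2 repeated symbols that had become dates were left out. The steps between low FPKM values gave an estimated 18820000 to 19700000 reads per library. The fit was loose, with scores of 0.231 to 0.375, where 1 would mean that all values used fell on whole reads. Read numbers of members rest on that estimate and on exon lengths of GENCODE M21 (same build), which also gave coordinates. Precision is limited by 3 libraries per group.

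The planned count model did not suit FPKM, and the planned fallback was used: limma 3.58.1 in R 4.3.3 on log2(FPKM + 1), with trend and robust variance. It was also run on simulated data with as many rises as falls. Most calls in the deposited data are falls, so that run does not vouch for them. Fold changes on the log2(FPKM + 1) scale are understated near 1 FPKM. Ratios were tested by exact permutation. The alternatives were a pseudocount of 0.1, no filter or a mean of at least 5 FPKM, the replicate number as a block, variance without the robust option, 4 other scalings and leaving out each library, with the tested genes kept. List genes not found by symbol were matched by RefSeq synonyms. Members, lists and tests were chosen with earlier results of these data known. Named genes are all members, Srebf1, the 3 genes of each list with the smallest p, other list genes that passed, and the 3 nearest genes of each member. Some of the genes that this rule names are not reported here. Others named for their level, such as Sqle and single marker genes, were chosen after values were seen.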

Additional observations from a re-analysis of the deposited data

How the results depend on the processing

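The counts below moved by over 1.5 times in at least 1 alternative. The ranges with 1 library left out are given whole and include smaller moves. Among all genes the count of 2652 was 4202 when rescaled to TPM and between 1127 (without celastrol replicate 1) and 3841 (without celastrol replicate 2) with 1 library left out. The members' count of 5 was 3 without the filter, 2 under median-ratio scaling, 3 after quantile normalization (2 lower and Mbtps1 higher) and 3 to 4 with 1 library left out. For the escort and turnover list 8 became 5 under median-ratio scaling, 4 under quantile normalization and 2 to 7 with 1 library left out. For COPII 7 became 1, 0 and 3 to 7, and 3 with the 20 most abundant genes left out. For other protease substrates 3 became 0, 0 and 0 to 3, 1 without the filter, 5 as TPM and 1 without the 20 most abundant genes. For uptake and transport 5 became 3, 3 and 0 to 8, and for LXR targets 2 became 1 after quantile normalization and 1 to 4 with 1 library left out. Fewer libraries enter each fit that leaves 1 out, and other causes were not tested. Signs changed for genes that did not pass: Srebf1 (0.19 under median-ratio scaling, 0.26 under quantile normalization, 0.057 without the 20 most abundant genes, -0.30 to 0.15 with 1 library left out), Mbtps1 (-0.11 as TPM, -0.055 to 0.045 with 1 left out) and Mylip (-0.10 to 0.33 with 1 left out). Counts for sterol synthesis (13 to 18) and lipogenic genes (8 to 10 with 1 library left out) stayed within 1.5 times, and each ratio kept its direction. Mbtps2 and Mylip had no value with a mean of at least 5 FPKM.

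Whether replicate numbers pair the libraries cannot be told from so few libraries. Deviations from the group means correlated at 0.15, 0.23 and -0.09 for numbers 1, 2 and 3, and not every library correlated best with its own number. With the replicate block 2585 genes passed, the members' count was 3 (Scap and Insig2 were lost, with adjusted p of 0.065 and 0.086) and that of other protease substrates was 5. The members near 2 FPKM rest on the fewest reads.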
